A study of Mus musculus with 6 samples.

Results

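The genes described here are the main chaperones, folding enzymes and stress-response genes of the endoplasmic reticulum (ER), measured in the cochlea of male DBA/2J mice at 36 weeks and at 7 weeks of age. They are 10 of the 12393 genes that the arrays name singly: Hspa5, Hsp90b1, Calr, Pdia3, Pdia4, Dnajc3, Sdf2l1, Ddit3, Atf4 and Herpud1. All probe sets that the platform annotation assigns to exactly 1 of these 10 symbols were taken, which gave 22 of the 20380 probe sets with a single symbol and of 22626 in all. The cochlea is the hearing organ of the inner ear, and DBA/2J is an inbred strain with progressive hearing loss from an early age. Total RNA from 3 cochlea samples of 36-week-old males and 3 of 7-week-old males was labelled with biotin and hybridised to 1-colour Affymetrix arrays, 1 array per sample. No allele or treatment other than the strain background and age is given, and the labels do not say whether a sample is 1 animal or a pool. The series' own design text states that no replicates were made and no quality control was used, so the p-values measure only the spread between these 6 samples, which may be technical.

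The ER is where secreted and membrane proteins are folded. Chaperones hold unfolded chains there, and disulfide isomerases form and rearrange their cysteine bonds. When unfolded protein builds up, the sensors PERK, IRE1 and ATF6 start the unfolded protein response. XBP1 and ATF6 raise the chaperones, while PERK slows translation and favours ATF4, which in turn can raise CHOP, the product of Ddit3. Cells with a heavy secretory output carry high levels of the chaperones without CHOP, so the chaperones and the stress genes are given separately below.

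The age comparison gave a mixed picture with no shared direction. Calr rose in all 3 of its probe sets and Sdf2l1 rose 2.44-fold. Pdia3 fell, with a mean at 7 weeks 1.74 times that at 36 weeks. Dnajc3 and Herpud1 fell by their brightest probe sets. Ddit3, Atf4 and Pdia4 did not pass the test, and neither did the brightest probe sets of Hspa5 and Hsp90b1. Of the 22 probe sets, 19 had a mean signal above the 40th percentile of all probe sets and were tested. Among the 19, 5 rose and 4 fell by limma at an adjusted p under 0.05. Over all 13575 tested probe sets 34.4% passed, 16.7% higher and 17.7% lower, which is 2267 and 2398 probe sets, or 1738 and 3088 with each array centred on its median. Signals are relative to the other transcripts on an array, and fewer cells of a type and less RNA per cell cannot be told apart in whole tissue. The members' share of 47.4% rests on 19 probe sets of 10 genes, several of which measure the same gene. By the brightest probe set of each gene, 2 of 10 genes rose and 3 fell, beside 17.5% and 17.6% of all 8555 tested genes. The median log2 difference of the 10 genes was -0.07, against 0.02 for all tested genes.

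Several of these genes are textbook targets of the unfolded protein response because of short elements in their promoters. The ER stress element is CCAAT and, after any 9 bases, CCACG, bound by NF-Y at its first part and by ATF6 or XBP1 at its second. A second form has ATTGG, any 1 base, then CCACG. The C/EBP-ATF element, bound by ATF4 and CHOP, was searched as TTGCATCA, and a further XBP1 and ATF6 element as TGACGTGG. Windows of 300 bases from RefSeq (GRCm38.p6), running from 250 bases before to 50 bases after each annotated start site, were searched on both strands. All 10 genes had such a window. The windows below are written 5′ to 3′ on the strand of the gene and are shown because they hold an element, which is in capitals.
Hspa5 promoter, chr2:34771840-34772139, plus strand: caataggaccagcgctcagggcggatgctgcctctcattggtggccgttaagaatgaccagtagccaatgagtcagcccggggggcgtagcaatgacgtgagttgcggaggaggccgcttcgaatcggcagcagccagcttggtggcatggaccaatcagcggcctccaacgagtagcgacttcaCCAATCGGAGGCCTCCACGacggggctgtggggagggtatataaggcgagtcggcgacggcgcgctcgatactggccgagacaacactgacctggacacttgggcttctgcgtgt
Hsp90b1 promoter, chr10:86705395-86705694, minus strand: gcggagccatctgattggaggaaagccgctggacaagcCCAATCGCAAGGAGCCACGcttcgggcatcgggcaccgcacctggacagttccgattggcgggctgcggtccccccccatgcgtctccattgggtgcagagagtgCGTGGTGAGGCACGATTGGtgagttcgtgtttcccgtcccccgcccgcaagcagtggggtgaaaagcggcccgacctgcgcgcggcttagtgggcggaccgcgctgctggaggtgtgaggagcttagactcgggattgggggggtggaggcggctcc
Calr promoter, chr8:84846882-84847181, minus strand: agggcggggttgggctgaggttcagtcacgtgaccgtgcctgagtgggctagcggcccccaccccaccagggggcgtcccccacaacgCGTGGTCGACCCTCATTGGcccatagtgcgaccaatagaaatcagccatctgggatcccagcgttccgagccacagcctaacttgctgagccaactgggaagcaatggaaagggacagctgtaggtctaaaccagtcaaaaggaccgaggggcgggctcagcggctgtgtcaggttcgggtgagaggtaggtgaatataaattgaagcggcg
Dnajc3 promoter, chr14:118937682-118937981, plus strand: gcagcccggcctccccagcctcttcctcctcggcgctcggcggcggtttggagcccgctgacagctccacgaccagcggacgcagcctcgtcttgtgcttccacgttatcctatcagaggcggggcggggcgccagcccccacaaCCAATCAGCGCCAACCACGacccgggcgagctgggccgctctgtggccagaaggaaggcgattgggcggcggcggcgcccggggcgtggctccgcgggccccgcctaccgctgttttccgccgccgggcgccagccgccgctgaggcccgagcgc
Herpud1 promoter, chr8:94386179-94386478, plus strand: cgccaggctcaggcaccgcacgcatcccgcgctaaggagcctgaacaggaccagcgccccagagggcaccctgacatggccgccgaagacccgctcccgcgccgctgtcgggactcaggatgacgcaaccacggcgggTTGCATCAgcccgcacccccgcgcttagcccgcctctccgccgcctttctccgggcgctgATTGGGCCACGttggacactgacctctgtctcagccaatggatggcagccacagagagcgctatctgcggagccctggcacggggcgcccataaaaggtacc

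The ER stress element was found in 4 of the 10 windows, those of Hspa5, Hsp90b1, Calr and Dnajc3, against 0.119% of the 32851 windows in the table. Hsp90b1 held it once on each strand, 212 and 107 bases before the start site at the element's outer edge, and Calr held it on the opposite strand. Herpud1 held the second form, present in 0.0365% of all windows, 52 bases before its start. It also held the C/EBP-ATF element, present in 0.895% of all windows, 112 bases before its start. The element TGACGTGG, present in 0.676% of all windows, was in none of the 10. Only exact matches were counted, so a window without a match may still hold a near match. The part CCAAT was present in all 10 windows and CCACG in 8, against 37.4% and 32.8% of all windows. These parts are also counted where they lie inside a full element. Because several of the 10 genes are textbook targets through such elements, their high shares are no independent finding. A match is a run of letters and not a measured binding site.

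**Figure D1:**
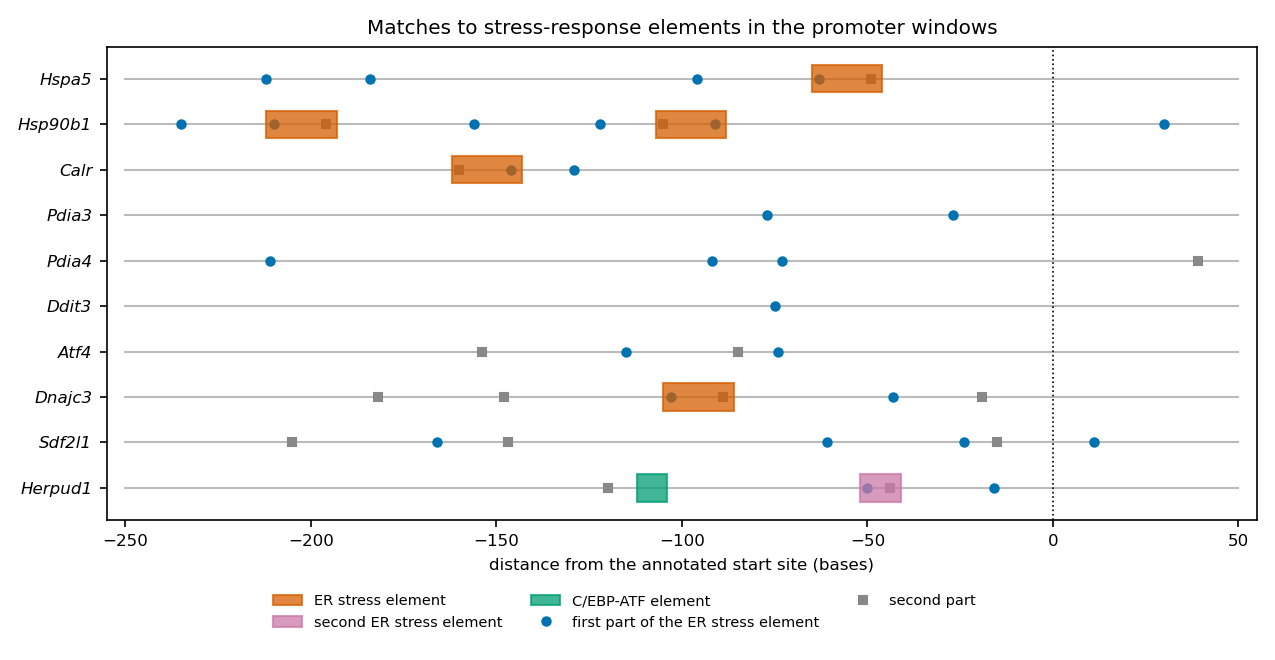
Matches in the 10 promoter windows by distance in bases from the annotated start site at 0. Boxes are full elements, circles and squares the first and second parts of the ER stress element wherever they occur, also inside a box; full ER stress elements lie in Hspa5, Hsp90b1 (2), Calr and Dnajc3, and the second form in Herpud1.

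The widest difference among the 10 genes was at Sdf2l1, while its promoter held no full element. Sdf2l1 is a small luminal protein that works with the ER-resident DnaJ proteins and Hspa5. Its window is shown for comparison, in lower case throughout because no element was matched, although CCAAT occurred 4 times and CCACG 3 times on either strand.
Sdf2l1 promoter, chr16:17132334-17132633, minus strand: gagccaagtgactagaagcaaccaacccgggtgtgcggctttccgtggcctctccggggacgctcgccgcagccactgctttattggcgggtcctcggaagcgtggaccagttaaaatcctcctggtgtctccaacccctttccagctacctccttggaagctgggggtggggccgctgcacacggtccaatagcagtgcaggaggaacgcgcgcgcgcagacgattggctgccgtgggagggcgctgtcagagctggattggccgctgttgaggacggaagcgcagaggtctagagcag

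Sdf2l1 had signals of 1567.8, 1621.6 and 1997.4 at 36 weeks, against 287.5, 625.3 and 1212.4 at 7 weeks. The ages did not overlap, and the 3 young arrays were spread far more widely than the 3 old ones, with a standard deviation of 468.0 against 234.0 at 36 weeks. The log2 difference, 36 weeks minus 7 weeks on the scale log2(signal + 50), was 1.42 ± 0.38 (SE, n = 3 per age), with a limma adjusted p of 0.0151 and a 95% interval of 0.58 to 2.26. It exceeded the log2 difference of 97.4% of all tested probe sets. The size depended on the young arrays: it was 0.94 (adjusted p = 0.0216) without 7 weeks replicate 1 and 1.89 (adjusted p = 0.00134) without 7 weeks replicate 3. Without 36 weeks replicate 3 it was 1.32 and just missed the threshold, with an adjusted p of 0.0507.

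Calr encodes calreticulin, the lectin chaperone that binds calcium and newly made glycoproteins. Its brightest probe set, 1417606_a_at, read 22633.3, 22362.5 and 21885.0 at 36 weeks, against 16097.0, 17282.8 and 17448.6 at 7 weeks. No young array reached an old one. The mean was 1.32 times as high at 36 weeks, and the log2 difference of 0.40 ± 0.06 had an adjusted p of 0.000762. Probe set 1433806_x_at gave 15101.4, 16269.8 and 15910.4 at 36 weeks, against 9152.5, 8629.1 and 9878.6 at 7 weeks, a log2 difference of 0.77 ± 0.08 and an adjusted p of 2.54e-05. In 1456170_x_at the means were 14927.7 ± 563.9 at 36 weeks and 12006.6 ± 1348.4 at 7 weeks (SD, n = 3), with a log2 difference of 0.32 and an adjusted p of 0.0168. Probe sets named _x_at can also bind related transcripts. The call of 1456170_x_at was lost in 4 of 14 alternative settings. One was centring each array on its median (log2 difference 0.22, adjusted p = 0.0723). The others were no intensity trend and the fits without 36 weeks replicate 3 or without 7 weeks replicate 2. Within arrays, 1433806_x_at gained 0.38 on 1417606_a_at and 0.45 on 1456170_x_at. The exact permutation test used for these differences gave p = 0.1, the smallest that it allows with 3 against 3 arrays.

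Hspa5 encodes BiP, the Hsp70 chaperone of the ER lumen and the usual marker of the unfolded protein response. The bright probe set 1416064_a_at read 18957.4, 18012.4 and 19078.1 at 36 weeks, against 15754.1, 22489.7 and 20973.2 at 7 weeks. The old arrays lay inside the range of the young ones, and the log2 difference was -0.06 with a 95% interval of -0.32 to 0.19. Probe set 1427464_s_at, whose suffix marks probes shared with related transcripts, read 3016.8, 3968.2 and 3479.4 at 36 weeks, against 4907.7, 4672.1 and 3970.7 at 7 weeks. Its highest old array and lowest young array differed by little, although the ages did not overlap. The log2 difference of -0.37 ± 0.12 passed with an adjusted p of 0.0402. It did not pass in 8 of 14 alternative settings, among them quantile normalization (adjusted p = 0.0577) and the fit without 36 weeks replicate 1 (-0.27, adjusted p = 0.132).

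Hsp90b1 encodes GRP94, the Hsp90 chaperone of the ER. Its brighter probe set, 1415889_a_at, averaged 6329.6 ± 291.5 at 36 weeks and 6354.6 ± 491.5 at 7 weeks (SD, n = 3), and the ages overlapped. The log2 difference was -0.004 with a 95% interval of -0.20 to 0.19. The other, 1438040_a_at, read 3416.1, 3664.7 and 4188.7 at 36 weeks, against 2858.7, 2884.7 and 2876.6 at 7 weeks. All old arrays were above the young ones, which were almost identical to each other. The log2 difference of 0.38 ± 0.10 had an adjusted p of 0.0184. It did not pass without 36 weeks replicate 3 (0.30, adjusted p = 0.0758) or with arrays centred on the median (0.27, adjusted p = 0.0755). Both probe sets carry the suffix _a_at, for probes shared by transcripts of 1 gene, and their ratio within arrays moved by -0.38 on the log2 scale with no overlap between the ages.

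Pdia3 and Pdia4 are disulfide isomerases. Pdia3, or ERp57, works on glycoproteins held by calreticulin and calnexin and also serves the loading of MHC class I molecules. Its only probe set read 2589.8, 2562.8 and 2388.7 at 36 weeks, against 3677.2, 5192.6 and 4245.6 at 7 weeks. Every old array was below every young one, and the young arrays were more spread. The log2 difference of -0.77 ± 0.13 had an adjusted p of 0.00102, and 93.0% of tested probe sets lay above it. It stayed between -0.89 and -0.64 and past the threshold in all 14 alternative settings. Pdia3 thus fell in the same arrays in which the transcript of its partner Calr rose. The tested probe set of Pdia4, ERp72, read 1709.4, 1740.8 and 1184.7 at 36 weeks, against 1641.7, 1371.8 and 1721.2 at 7 weeks. The ages overlapped, and the log2 difference was -0.04 with a 95% interval of -0.43 to 0.34. A second Pdia4 probe set was dim, at 408.8 ± 189.4 and 323.2 ± 80.9 (SD, n = 3) for 36 and 7 weeks, and was not tested.

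Dnajc3, or p58IPK, is an ER co-chaperone of Hspa5 that is also known as an inhibitor of PERK. Its 5 probe sets did not move together. The brightest, 1433887_at, read 1553.8, 1825.8 and 1901.1 at 36 weeks, against 2209.6, 2688.4 and 2701.0 at 7 weeks. The ages were apart, and the log2 difference of -0.51 ± 0.13 had an adjusted p of 0.0129, which was 0.0507 without 7 weeks replicate 2. Probe set 1449372_at went the other way, with 2590.9, 1968.8 and 1702.0 at 36 weeks against 1542.8, 1584.8 and 1681.3 at 7 weeks. There too no arrays overlapped, but the log2 difference of 0.35 ± 0.16 did not pass (adjusted p = 0.113). Probe sets 1419163_s_at and 1419162_s_at gave -0.04 and -0.15, with overlapping arrays. The fifth, 1449373_at, was too dim to test, at 214.7 ± 58.9 at 36 weeks and 367.4 ± 90.7 at 7 weeks (SD, n = 3). Its arrays were lower at 36 weeks without overlap, and with no filter its log2 difference was -0.66 (adjusted p = 0.255). With the tested probe sets averaged, the log2 difference of Dnajc3 was -0.09 (adjusted p = 0.587), so the fall past the threshold rests on 1 probe set.

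Probe sets of the same gene could also be compared within arrays, by their log2 ratio. Of 13 such pairs among the tested probe sets, 6 (46.2%) had ratios that did not overlap between the ages, beside 34.3% of the 5680 pairs over all genes of the array. The 13 pairs share probe sets, and this difference in share was not tested. The 6 were pairs of Hsp90b1, Calr and Dnajc3. The widest was 1433887_at over 1449372_at of Dnajc3, with -0.22 ± 0.45 at 36 weeks and 0.64 ± 0.12 at 7 weeks (SD, n = 3). An exact two-sided permutation test gave p = 0.1 for each of the 6, the smallest that 3 against 3 arrays allow, and 0.217 after Benjamini-Hochberg adjustment over the 13. Which transcripts or exons each probe set binds was not tested here.

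**Figure D2:**
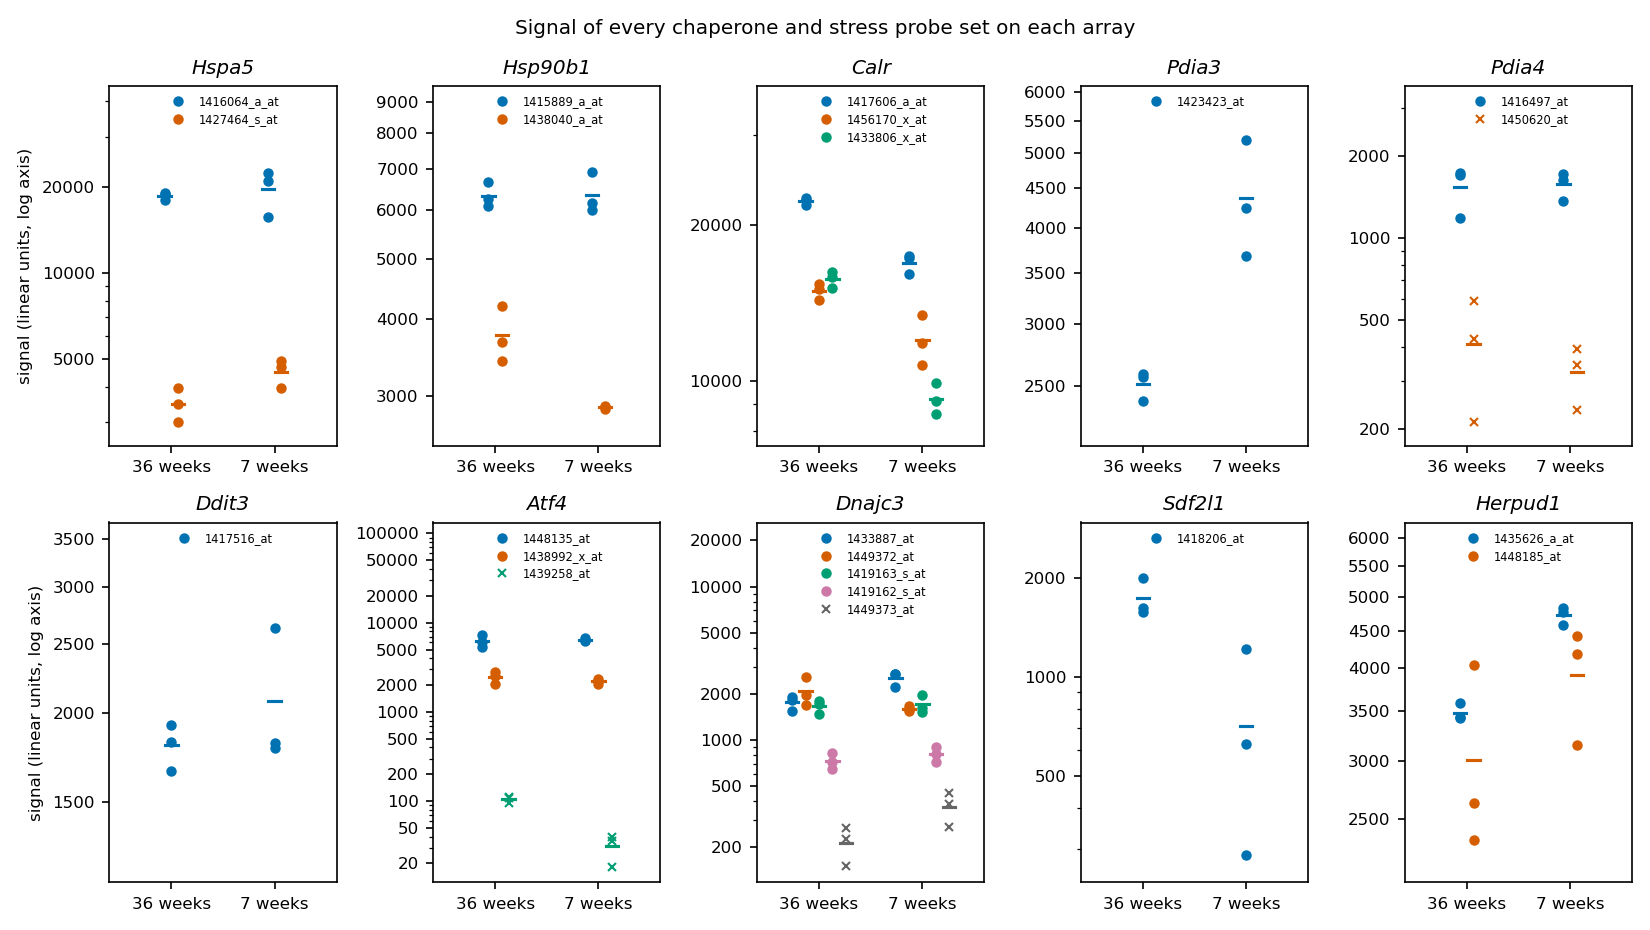
Signal of each probe set of the 10 genes on each array (linear units on a log axis), 36 weeks on the left and 7 weeks on the right of each panel; colours are probe sets, dots tested and crosses untested ones, bars the mean of 3 arrays. The 3 Calr probe sets lie higher at 36 weeks without overlap, Pdia3 lies lower, and the Hspa5, Atf4 and Ddit3 points of the brightest probe sets overlap.

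No tested probe set of the stress-response genes rose past the threshold. Ddit3 encodes CHOP, the transcription factor tied to cell death under lasting ER stress. It read 1660.3, 1823.3 and 1926.2 at 36 weeks, against 2632.2, 1785.8 and 1817.8 at 7 weeks. Only young replicate 1 stood apart, and the other arrays overlapped. The log2 difference was -0.18 with a 95% interval of -0.54 to 0.18, and -0.001 without that array.

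Atf4, the factor translated when PERK or another kinase phosphorylates eIF2-alpha, is controlled largely at translation, so its mRNA is a partial readout. Probe set 1448135_at read 5321.8, 7264.2 and 6002.3 at 36 weeks, against 6734.6, 6186.2 and 6458.3 at 7 weeks. The young arrays fell inside the range of the old ones, and the log2 difference was -0.07 with a 95% interval of -0.32 to 0.18. Probe set 1438992_x_at had a log2 difference of 0.15 (interval -0.15 to 0.45), also with overlap. The third Atf4 probe set, 1439258_at, read 108.1, 94.8 and 111.3 at 36 weeks against 35.9, 18.2 and 39.7 at 7 weeks. Its arrays did not overlap, but it lay at the 5.4 percentile of brightness and below the level for testing. With no filter its log2 difference was 0.94 (adjusted p = 0.0444), a size that depends on the offset.

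Herpud1 is a membrane protein of ER-associated degradation, which removes misfolded proteins, and it is induced by both the ATF6 or XBP1 and the ATF4 arms. Probe set 1435626_a_at read 3589.4, 3435.1 and 3429.0 at 36 weeks, against 4583.7, 4773.0 and 4823.2 at 7 weeks. The ages were clearly apart with little spread in either. The log2 difference of -0.43 ± 0.09 had an adjusted p of 0.00309 and stayed between -0.54 and -0.40, past the threshold in all 14 alternative settings. Probe set 1448185_at read 4041.7, 2342.7 and 2628.2 at 36 weeks, against 3156.3, 4429.4 and 4183.0 at 7 weeks. Old replicate 1 overlapped the young arrays, and its log2 difference of -0.40 ± 0.19 did not pass (adjusted p = 0.136). Without that array it was -0.64 with an adjusted p of 0.0136.

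Set out by role, the 14 tested probe sets of the 7 chaperone and folding genes included 5 that rose and 3 that fell, with a median log2 difference of -0.02. Among the 5 tested probe sets of Ddit3, Atf4 and Herpud1, 0 rose and 1 fell, with a median of -0.18. The other 4 were not past the limma test. For comparison, 34.4% of all 13575 tested probe sets passed, 16.7% higher and 17.7% lower. Arrays of the ages did not overlap for 9 of the 14 and for 1 of the 5, beside 47.8% of all tested probe sets. A difference between the roles was not tested. Of the 22 probe sets, 17 to 19 lay above the median signal of each array.

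**Figure D3:**
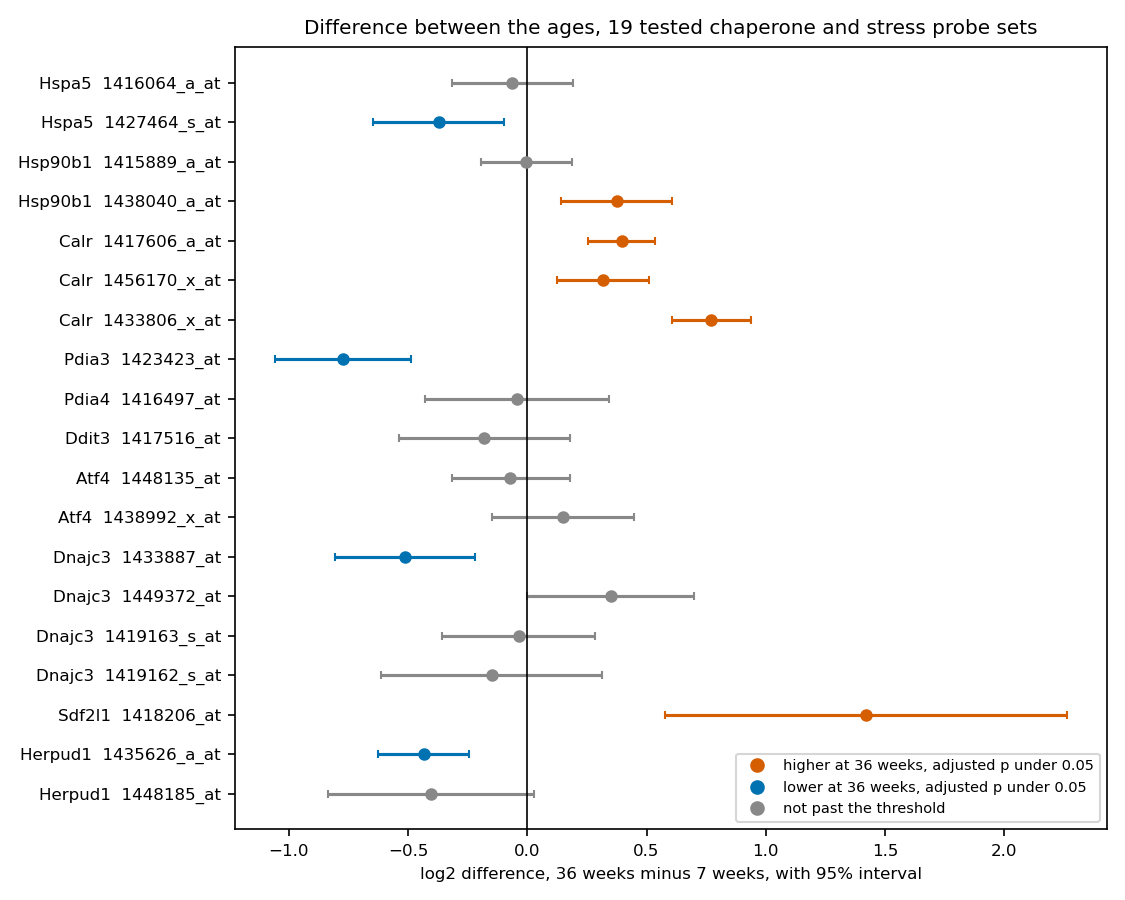
Log2 difference, 36 weeks minus 7 weeks, of the 19 tested probe sets (points) with 95% intervals from limma (bars), n = 3 arrays per age. The intervals of Calr and Sdf2l1 lie above 0 and those of Pdia3 and Herpud1 1435626_a_at below. The intervals of Herpud1 1448185_at, Pdia4, Ddit3, Atf4 and of the brightest probe sets of Hspa5 and Hsp90b1 hold 0.

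The wider ER pathway was read from the same fit in 5 lists that do not contain the 10 genes. Of their 144 genes, 118 were tested by their brightest probe set, and 24 rose and 24 fell, with a median log2 difference of -0.01. That is 40.7%, beside 35.1% of all tested genes. The rises include Fkbp11 and Aldh18a1, whose direction was fixed by the filter. Among 32 tested genes of folding and glycan quality control, 7 rose and 7 fell, with a median of -0.01. Fkbp11, among these rises, averaged 854.0 at 36 weeks and 474.0 at 7 weeks. Its 7-week mean was below the level for testing of 593.6, so it was tested only through 36 weeks. P4hb, the founding protein disulfide isomerase and a subunit of collagen prolyl hydroxylase, averaged 16208.4 ± 1295.4 at 36 weeks and 11004.7 ± 1176.7 at 7 weeks (SD, n = 3), a log2 difference of 0.56 (adjusted p = 0.00111). Erp29 rose by 0.59 and Ero1a, the oxidase that recharges the isomerases, by 0.43. On the falling side were Fkbp9, a prolyl isomerase of the ER, with 3042.2 ± 771.6 at 36 weeks against 10716.0 ± 540.0 at 7 weeks, and the calcium-binding proteins Rcn1 and Calu. Their log2 differences were -1.83, -1.23 and -0.52, with adjusted p-values of 1.21e-05, 8.08e-05 and 0.000722. Fkbp9 was read by an _x_at probe set, which can also bind related transcripts.

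Translocation and glycosylation genes were also divided, 4 of 27 higher and 6 lower, with a median of -0.11. That is 37.0%, beside 35.1% of all tested genes. The call of Sec61a1, the channel's main subunit, went both ways: its brightest probe set fell by 0.27 (adjusted p = 0.0418), while 3 other probe sets of the gene rose past the threshold. Sec61b, of the translocation channel, rose by 0.63, Spcs3, of the signal peptidase, by 0.87 and Ddost, of the oligosaccharyltransferase, by 0.54. The 3 falls with the smallest p were in proteins of the signal recognition particle, Srp9, Srp14 and Srp19, by 0.65, 0.62 and 0.48. Srp14, too, was read by an _x_at probe set. The count of lower genes here was 3 with quantile normalization or without 36 weeks replicate 2, and 10 with arrays centred on the median. Of 21 genes of ER-associated degradation, 4 rose and 3 fell, with a median of 0.05. That is 33.3%, beside the same 35.1%. Derl3, a derlin of the dislocation machinery, had 1512.6 ± 94.8 at 36 weeks against 764.5 ± 260.4 at 7 weeks (SD, n = 3), a log2 difference of 0.99 (adjusted p = 0.00711). Edem2, a mannosidase-like protein, rose by 0.80 and Syvn1, the ubiquitin ligase HRD1, by 0.70, while Selenos, Derl1 and Ube2g2 fell by 0.49, 0.29 and 0.50. The 3 falls numbered 1 when 36 weeks replicate 2 or any single young array was left out.

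Among 10 tested sensors and transcription factors, 4 rose and 3 fell, with a median log2 difference of -0.13. That is 70.0% of only 10 genes, beside 35.1% of all tested genes. Xbp1, the factor spliced by IRE1, averaged 19369.5 ± 384.9 at 36 weeks and 10950.8 ± 175.2 at 7 weeks (SD, n = 3), and its splicing was not measured. Creb3l1, a factor of matrix-secreting and glandular cells, rose by 0.97 (adjusted p = 0.00102), whereas its relative Creb3l2 fell by 0.97 (adjusted p = 2.63e-05). Nfya rose by 0.69 and Nfyc fell by 0.42, both subunits of the factor NF-Y that binds CCAAT, and the protease Mbtps1, which cleaves ATF6, fell by 0.37. Of the sensors themselves, named after their values were seen, Eif2ak3 (PERK) rose by 0.38 (adjusted p = 0.0306), Atf6 had a log2 difference of -0.15 and did not pass, and Ern1 (IRE1) was too dim to test.

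Of 28 tested target genes of ATF4 and CHOP, 5 rose and 5 fell, with a median log2 difference of 0.09. That is 35.7%, beside 35.1% of all tested genes. The 5 falls numbered 3 without any single array of 36 weeks and 2 without 7 weeks replicate 1. The amino acid enzymes Asns and Aldh18a1 rose by 1.04 ± 0.09 and 1.35 ± 0.18, with adjusted p-values of 1.41e-05 and 0.000267. Aldh18a1 averaged 558.0 at 7 weeks, below the level for testing of 593.6. It was tested only through its 36-week mean of 1498.4, so its direction was fixed by the filter. Asns had 7449.7 ± 232.5 at 36 weeks against 3620.0 ± 328.4 at 7 weeks (SD, n = 3). Nupr1, a stress-induced chromatin protein, rose by 0.84. Ddit4, an inhibitor of mTORC1, fell by 1.72 (adjusted p = 9.63e-07), and Iars and Atf5 by 0.55 and 0.49. The widely used CHOP and ATF4 targets Trib3, Chac1, Atf3 and Ppp1r15a, named after their values were seen, had log2 differences of 0.38, 0.19, 0.77 and -0.40, and none of these passed (adjusted p = 0.335, 0.518, 0.154 and 0.098). Trib3 and Atf3 averaged 555.3 and 465.6 at 7 weeks, also below the level for testing.

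**Figure D4:**
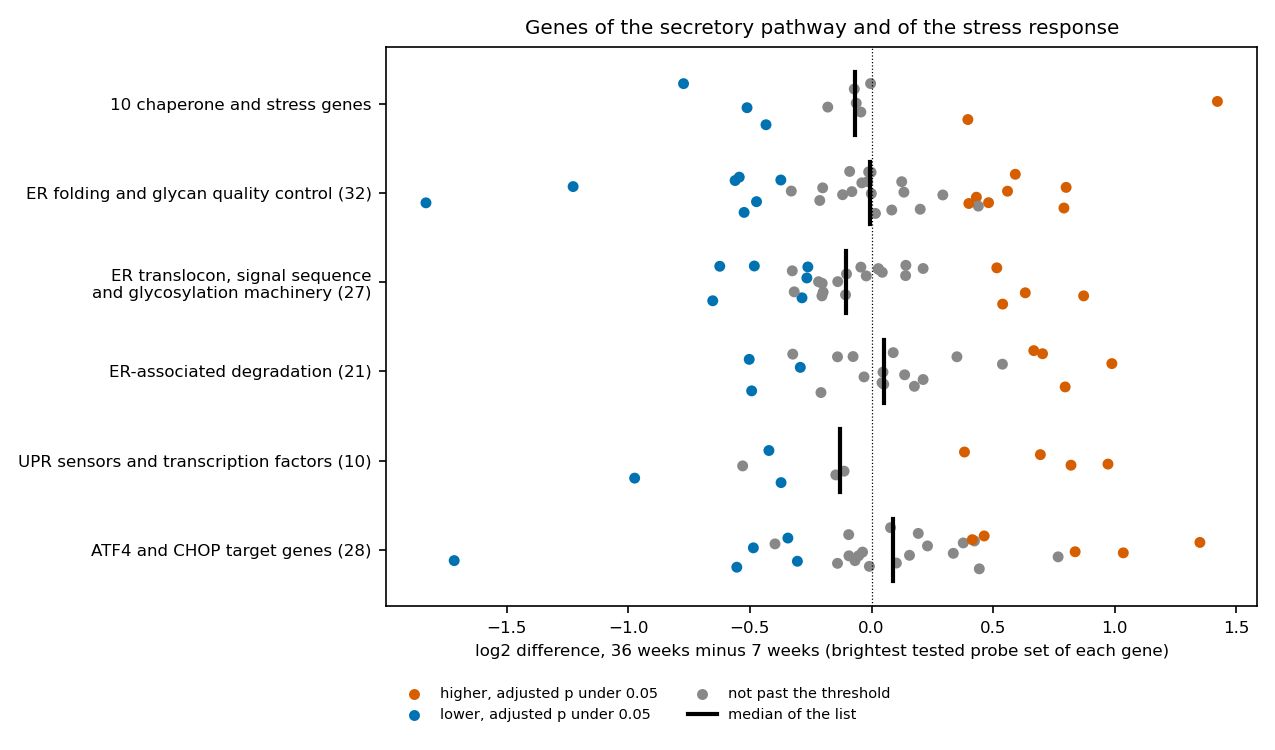
Log2 difference, 36 weeks minus 7 weeks, of the brightest tested probe set of each gene, for the 10 chaperone and stress genes and 5 further lists (numbers of genes in brackets); colours show the limma call and black bars the list medians. Every list holds genes past the threshold on both sides of 0, and the medians lie between -0.13 and 0.09.

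Promoter elements offered a grouping that did not use the signals. In the whole table, 49 genes had an ER stress element of either form, and 21 of these were tested. Of the 21, 6 rose and 5 fell, where 17.5% and 17.6% of all tested genes did, and their median log2 difference was 0.18 beside 0.02. These few genes include several of the lists above and were not tested as a group. The 5 that belong to the 10 chaperone and stress genes were Calr, which rose, Dnajc3 and Herpud1, which fell, and Hspa5 and Hsp90b1, which did not pass. Among the other 16 genes, Syvn1, Derl3 and Creld2, a secreted stress protein, rose by 0.70, 0.99 and 0.48, as did Pan2 and Adcy3 by 0.505 and 0.36. Canx, calnexin, the membrane-bound partner of calreticulin, fell by 0.37 (adjusted p = 0.0109), with 7628.8 at 36 weeks against 9902.7 at 7 weeks. Rbm39 and Lgalsl fell by 0.84 and 0.54. Pdia6 and Dnajb11, further BiP partners, did not pass, at -0.02 and 0.29 on the log2 scale. Calr and Canx, which share substrates and an ER stress element, thus moved in opposite directions.

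The ages also differed in markers of secretory and other cell types. All 13 tested markers of mucous and serous glands and all 17 of granulocytes were higher at 36 weeks, with summed signals of 866770 to 921017 against 193335 to 204726 at 7 weeks for glands and 749150 to 796879 against 52453 to 57078 for granulocytes. The lists share Ltf and Lcn2, which are counted in both. The level for testing, 593.6, was set on the mean of all 6 arrays. Agr2, Spdef, Reg3g, Ctsg, Cxcr2, Ltb4r1 and Itgam averaged below it at 7 weeks. Once tested they could only be higher at 36 weeks, so their direction was fixed by the filter. Plasma cell markers were higher in 4 of 7, summing to 28189 to 30470 at 36 weeks against 4822 to 5734 at 7 weeks, and pituitary markers in 6 of 8. Markers were lower at 36 weeks for 9 of 9 spiral ligament fibrocyte genes, 15 of 15 skeletal muscle genes, 6 of 7 chondrocyte genes, 7 of 10 osteoblast and fibroblast genes, 6 of 9 genes of the stria vascularis and 3 of 6 hair cell genes. In the chondrocyte list Comp rose by 1.08, and in the osteoblast and fibroblast list Col1a1 rose by 0.53. Beside these counts, 17.5% of all tested genes were called higher and 17.6% lower at 36 weeks. Fibrocyte markers summed to 64084 to 66195 at 36 weeks against 260164 to 269912 at 7 weeks. The filter also fixed the direction of other markers. Among these, Jchain, Igk and Cga reached the level for testing only through 36 weeks. Ibsp, Col9a3, Sln, Tbx18 and Kcne1 reached it only through 7 weeks. The hair cell genes Pou4f3, Cdh23, Slc26a5, Strc and Gfi1 and the gland genes Muc5ac, Tff3 and Scgb1a1 were too dim to test, and no marker was listed at 0. The part of these marker shifts in the changes of Calr, Sdf2l1, Pdia3 and Herpud1 was not tested.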

How the data were processed

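Cochlear RNA of 6 mouse samples, 3 per age, was measured on 1-colour Affymetrix arrays. The deposited values are linear intensity values per probe set. The sources used here do not name the software that summarised them or say how arrays were scaled; the mean signals of the arrays were near-equal (2025.2 to 2072.4). Array medians ran from 844.0 to 859.4 at 36 weeks and from 766.3 to 800.4 at 7 weeks. Precision is limited by having 3 arrays per age.

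Signals were analysed as log2(signal + 50), which understates changes of dim probe sets. The 13575 probe sets with a mean above the 40th percentile (593.6) were fitted with limma 3.58.1 in R 4.3.3 (lmFit, eBayes with intensity trend, 36 weeks minus 7 weeks, unpaired and two-sided), with Benjamini-Hochberg adjustment over all of them and a threshold of 0.05. Tables and plots were made with Python 3.11.15. The fit was tested on simulated data. Genes were represented by their brightest tested probe set. The members, lists and tests were chosen with earlier results of these data known. Named genes are all members and, per further list, up to 3 genes per direction with the smallest p past the threshold. Genes with an ER stress element were named by the element. Eif2ak3, Atf6, Ern1, Trib3, Chac1, Atf3, Ppp1r15a, Sec61a1, Fkbp11, Comp and Col1a1 were named after their values were seen. So were the markers with 1 age below the level for testing. Symbols come from the platform annotation: 20380 probe sets had 1 symbol, 691 several and 1555 none.

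Alternatives were offsets of 1 and 16, quantile normalization, median centring, no filter, the 60th percentile, no trend, a replicate block, leave-one-out fits, the mean of a gene's probe sets, and all 9 pairs at 1.5-fold. Same-numbered arrays deviated from their age means with correlations of 0.049, -0.01 and -0.002. These values showed no clear pairing by number, but with 3 arrays per age they cannot show whether arrays were paired.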

Additional observations from a re-analysis of the deposited data

How the results depend on the processing

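Of 265 alternative values of the 19 tested probe sets, 247 kept their side of the threshold, 16 lost a call, 2 gained one and 0 calls changed direction. Calls of Pdia3, Herpud1 (1435626_a_at) and Calr (1417606_a_at and 1433806_x_at) were kept in all 14 settings run on each. Of the chaperone and stress probe sets, 5 rose and 4 fell in the reported fit. The number that rose was 3 with arrays centred on the median and 3 to 5 with single arrays left out, lowest without 36 weeks replicate 3; the number that fell was 2 to 4 with single arrays left out, lowest without 7 weeks replicate 2. All 9 pairs at 1.5-fold or more held for 2 probe sets that rose (Calr 1433806_x_at and the dim Atf4 1439258_at) and for 0 that fell. Of the further pathway genes 24 fell, against 13 without the intensity trend. Median centring moved the median log2 difference of all tested probe sets by -0.102 and the calls to 1738 higher and 3088 lower, against 2267 and 2398 in the reported fit; the changes above are relative to that scale. With the replicate block, 5 chaperone and stress probe sets rose and 3 fell, 1427464_s_at of Hspa5 being the call lost, and 2121 probe sets rose and 2254 fell in all. The causes of these shifts were not tested. The spread of 3 arrays limits what can be called among the dim probe sets.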
